A study of Mus musculus with 44 samples.

Results

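Slc17a7, Neurod6 and Nrn1, 3 genes of the 8203 in the normalized matrix, were followed through a pulldown that was aimed at inhibitory neurons. They were chosen by name as genes of glutamatergic neurons, and all 3 were measured in all 44 mice. The data are TRAP-seq libraries (translating ribosome affinity purification and sequencing) of corticotropin-releasing hormone (Crh) neurons from mouse amygdala, 1 library for each mouse. All mice were Crh-TRAP animals of 10 to 16 weeks, heterozygous for Crh-Cre and for a Cre-dependent eGFP-L10a allele at Rosa26, so every group carried both alleles. The Crh-Cre transgene decides which cells tag their ribosomes, and cells that expressed Cre only earlier in life are tagged as well. Tissue came from bilateral 1 mm punches centered over the amygdala. Tone-alone mice (TA, n = 16) heard 5 tones without shock. Fear-conditioned mice (FC, n = 12) received 5 tone-shock pairings at 0.65 mA. Extinction mice (EXT, n = 16) were fear conditioned in the same way and, on the next day, heard 30 tones without shock in a new context. Sacrifice followed the last session by 2 h. Mice were processed in 5 batches. Batches 1, 2 and 5 held all 3 groups (11, 10 and 17 mice), whereas batches 3 and 4 held only EXT mice (5 and 1). Within the groups, 10 TA, 6 FC and 10 EXT mice were male. Effective library sizes ran from 12802113 to 20440351 reads. Their medians differed by group, at 1.80e+07 in TA, 1.70e+07 in FC and 1.54e+07 in EXT.

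Slc17a7 encodes VGLUT1, the transporter that loads glutamate into synaptic vesicles of cortical, hippocampal and basolateral amygdala projection neurons. Neurod6 is a basic helix-loop-helix (bHLH) transcription factor of excitatory neurons of the forebrain, which binds E-boxes. Nrn1 encodes neuritin, a small GPI-anchored protein of excitatory neurons that is induced by activity and promotes neurite growth. The central amygdala (CeA) consists largely of GABAergic neurons, and the neighboring basolateral amygdala of glutamatergic ones. No unbound or whole-tissue sample was analysed here, so the measured values are levels in the pulldown and not enrichment over the tissue. In such bulk samples, fewer cells of a type and less RNA per cell cannot be told apart.

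On GRCm38, with GENCODE gene models, Slc17a7 (ENSMUSG00000070570.5) lies on the plus strand of chromosome 7 from 45163949 to 45176142. Neurod6 (ENSMUSG00000037984.9) lies on the minus strand of chromosome 6 from 55677822 to 55681263. Nrn1 (ENSMUSG00000039114.16) lies on the minus strand of chromosome 13 from 36725361 to 36735131. All 3 are protein coding. Because Neurod6 binds E-boxes, the 250 bases before the RefSeq start of 2 of the 3 genes are shown as a description. They come from RefSeq's table for GRCm38.p6 and are written 5′ to 3′ on the gene's own strand. Binding of Neurod6 to them was not tested. Capitals mark each match to the E-box CANNTG, a motif that reads the same on both strands.
Slc17a7, chr7:45163671-45163920, plus strand: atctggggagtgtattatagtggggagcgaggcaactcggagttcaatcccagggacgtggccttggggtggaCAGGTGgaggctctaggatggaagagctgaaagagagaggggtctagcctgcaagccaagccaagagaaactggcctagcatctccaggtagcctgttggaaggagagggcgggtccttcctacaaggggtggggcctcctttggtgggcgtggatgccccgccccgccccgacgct
Neurod6, chr6:55681264-55681513, minus strand: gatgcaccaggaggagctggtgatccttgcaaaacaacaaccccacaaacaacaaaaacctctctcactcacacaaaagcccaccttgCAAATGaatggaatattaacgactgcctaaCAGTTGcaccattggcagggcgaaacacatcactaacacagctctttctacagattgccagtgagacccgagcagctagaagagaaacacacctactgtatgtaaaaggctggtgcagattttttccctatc
The Slc17a7 window held 1 match (CAGGTG, from 177 to 172 bases before the start). The Neurod6 window held 2 matches (CAAATG from 162 to 157 and CAGTTG from 132 to 127 bases before the start). Of all 32851 windows of this length in the table, 66.2% held at least 1 match to CANNTG. Neither window held the cAMP response element TGACGTCA or its core TGACG, searched on both strands and counted inside the full element too. These were present in 1.55% and 17.8% of all windows. A match describes these letters only. Nrn1 has no entry in the table.

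The pulldown carried the markers of the targeted neurons. Of 30 genes of GABAergic and CeA neurons, 27 were measured. Gad1 and Gad2, the enzymes of GABA synthesis, had median levels of 78.2 and 84.2 cpm (counts per 1e6 reads) per kilobase of annotated exon, and Crh had 33.5. On the same scale, which corrects for gene length, Nrn1 had a median of 23.8, Slc17a7 of 14.04 and Neurod6 of 7.55. The level of Gad2 per kilobase was above that of each of the 3 genes in all 44 mice. Slc17a7 exceeded Gad1 in 3 mice and Crh in 9, and Nrn1 exceeded Gad1 in 4 mice and Crh in 19. Neurod6 exceeded Gad1 in 0 mice and Crh in 6. Some other genes on the list of glutamatergic identity were higher than Gad1. Medians were 418 cpm per kilobase for Nrgn (neurogranin), 114 for Itpka, 96.7 for Cck and 81.6 for Arpp21, whereas Rorb had 1.13. Not all of them varied with the 3 genes between mice, as described below. Pearson r with the 3 genes was -0.08 to -0.06 for Nrgn, 0.04 to 0.12 for Itpka and -0.60 to -0.55 for Arpp21. It was 0.64 to 0.84 for Cck and 0.41 to 0.48 for Rorb. Of the 26 genes on the list, 11 were not analysed here, among them Slc17a6, Slc17a8, Neurod1, Neurod2, Tbr1, Emx1, Slc30a3, Rspo2, Cux2 and Fezf2.

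The order Nrn1, Slc17a7, Neurod6 held for the mean levels per kilobase (4.25 ± 1.05, 3.82 ± 1.05 and 2.88 ± 1.01 log2 units, SD, n = 44). Nrn1 was above Slc17a7 in 36 of 44 mice by a mean of 0.43 ± 0.79 (SD). The mean difference was smaller than the SD between mice, and the order turned in the other 8 mice. Slc17a7 was above Neurod6 in 42 of 44 mice by 0.94 ± 0.72 (SD). The exon length of Slc17a7 used here, 5392 bases, is the union over all annotated transcripts, and a shorter length would raise its level per kilobase.

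Levels differed widely between mice. On the deposited scale (log2 cpm, with 0.5 added to the reads), Slc17a7 ran from 3.72 in FC mouse 12 to 8.17 in EXT mouse 22, a 21.9-fold range, with 217 to 4710 reads in a library. Neurod6 ran from 2.26 in EXT mouse 26 to 5.93 in TA mouse 34, a 12.7-fold range, with 66 to 1126 reads. Nrn1 ran from 2.95 in TA mouse 35 to 6.80 in EXT mouse 22, a 14.4-fold range, with 135 to 1821 reads. The same mice stood at the ends for more than 1 gene. Counted from the lowest of 44, EXT mouse 26 ranked 2, 1 and 2 for Slc17a7, Neurod6 and Nrn1, FC mouse 12 ranked 1, 7 and 5, and EXT mouse 22 ranked 44, 38 and 44.

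**Figure D1:**
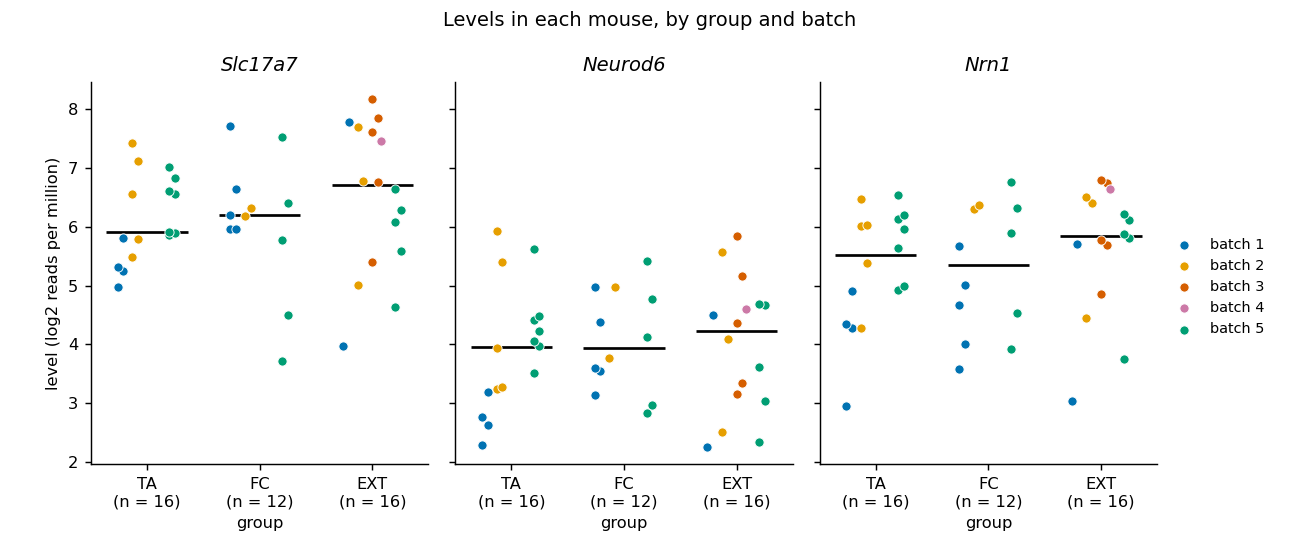
Level of Slc17a7, Neurod6 and Nrn1 in each mouse (vertical axis, log2 cpm) by group (TA n = 16, FC n = 12, EXT n = 16), with points colored by batch and a line at the median of the group. The 3 groups overlap for each gene, the batch 1 mice lie low for Nrn1, and 4 of the 6 EXT mice of batches 3 and 4 lie above all TA mice for Slc17a7.

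After the mean of each batch and group was removed (39 mice in the 8 combinations with at least 3 mice), the SD between mice was 0.93 for Slc17a7, 0.99 for Neurod6 and 0.90 for Nrn1 on the log2 scale. These values ranked 36, 29 and 40 of 8203 genes, and the median gene had an SD of 0.29. Counting error alone would give an SD of 0.046, 0.10 and 0.062 for the 3 genes. Crh, the gene that drives the tag, had an SD of 0.57 (rank 290), Gad1 of 0.33 (rank 2767) and Gad2 of 0.22 (rank 6311). Groups accounted for 2.93% of the variance of Slc17a7 over all 44 mice, 0.18% of that of Neurod6 and 2.78% of that of Nrn1. Batches accounted for 16.9%, 13.4% and 36.2%, beside a median of 41.5% over all genes.

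**Figure D2:**
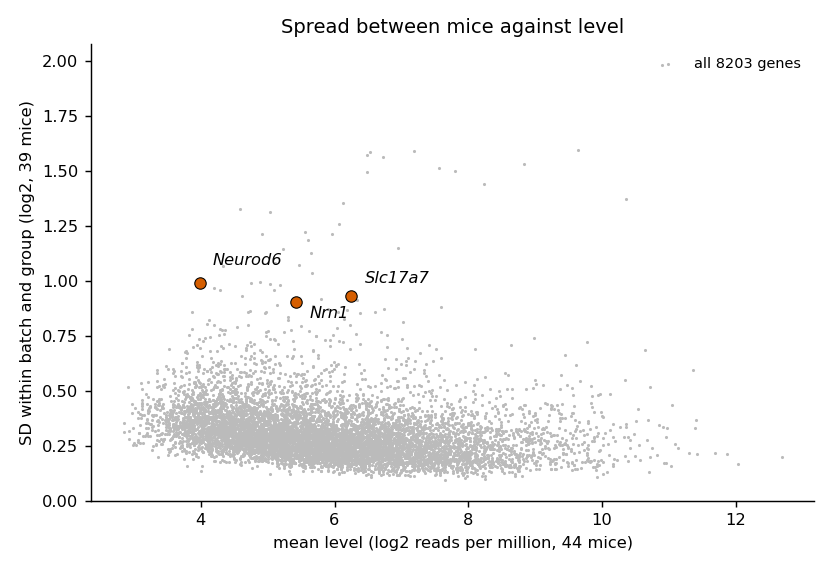
SD between mice within batch and group (vertical axis, log2 units, 39 mice) against mean level (horizontal axis, log2 cpm, 44 mice) for all 8203 genes in gray and the 3 named genes in orange. At their levels, Slc17a7, Neurod6 and Nrn1 lie near the upper edge of the cloud, at ranks 36, 29 and 40.

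The comparisons between groups ask whether fear learning or its extinction changed these transcripts in the pulldown. None of the 3 genes differed between any pair of groups at FDR < 0.05 in limma, which was fitted across all genes with batch number and sex as covariates and adjusted by Benjamini-Hochberg. Levels of Slc17a7 (lowest, median, highest) were 4.97, 5.91 and 7.42 in TA, 3.72, 6.19 and 7.72 in FC, and 3.97, 6.70 and 8.17 in EXT. Those of Neurod6 were 2.30, 3.96 and 5.93 in TA, 2.84, 3.95 and 5.41 in FC, and 2.26, 4.23 and 5.84 in EXT. Those of Nrn1 were 2.95, 5.52 and 6.54 in TA, 3.58, 5.34 and 6.76 in FC, and 3.03, 5.84 and 6.80 in EXT. The groups overlapped over most of their range for each gene. For Slc17a7, 6 of 16 EXT mice lay above every TA mouse and 2 lay below every TA mouse.

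For EXT vs. TA, the log2 difference was 0.32 ± 0.35 (SE) for Slc17a7, with a 95% confidence interval from -0.39 to 1.04 (adjusted p = 0.511). It was 0.02 ± 0.36 for Neurod6, from -0.71 to 0.75 (adjusted p = 0.979). It was 0.29 ± 0.33 for Nrn1, from -0.38 to 0.96 (adjusted p = 0.534). With batches as categories the differences were -0.14 ± 0.36 for Slc17a7, -0.30 ± 0.37 for Neurod6 and -0.02 ± 0.34 for Nrn1 (adjusted p = 0.855, 0.661 and 0.981). All 3 thus changed sign with the coding of batch. In this comparison 21.4% of all genes (1755 of 8203) were called with batch as a number and 0.0244% (2 genes) with batches as categories. Of all genes, 10.4% were called higher and 11% lower with batch as a number, and 0.0366% were called without batches 3 and 4. With library size as a covariate, 0 of 8203 genes were called.

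For FC vs. TA, the difference was -0.02 ± 0.32 for Slc17a7 (95% interval -0.68 to 0.64, adjusted p = 0.995), 0.18 ± 0.34 for Neurod6 (-0.51 to 0.88, adjusted p = 0.902) and 0.04 ± 0.34 for Nrn1 (-0.65 to 0.74, adjusted p = 0.989). For EXT vs. FC it was 0.44 ± 0.42 for Slc17a7 (-0.42 to 1.30, adjusted p = 0.558), -0.05 ± 0.38 for Neurod6 (-0.82 to 0.71, adjusted p = 0.951) and 0.27 ± 0.37 for Nrn1 (-0.49 to 1.02, adjusted p = 0.701). With batches as categories the EXT vs. FC values became 0.03 ± 0.47, -0.41 ± 0.42 and -0.15 ± 0.40. In both comparisons limma called 0% of all genes (0 of 8203), while 10.4% (853 genes) in FC vs. TA and 19.3% (1587 genes) in EXT vs. FC had an unadjusted p under 0.05. EXT vs. TA and FC vs. TA share the TA mice.

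**Figure D3:**
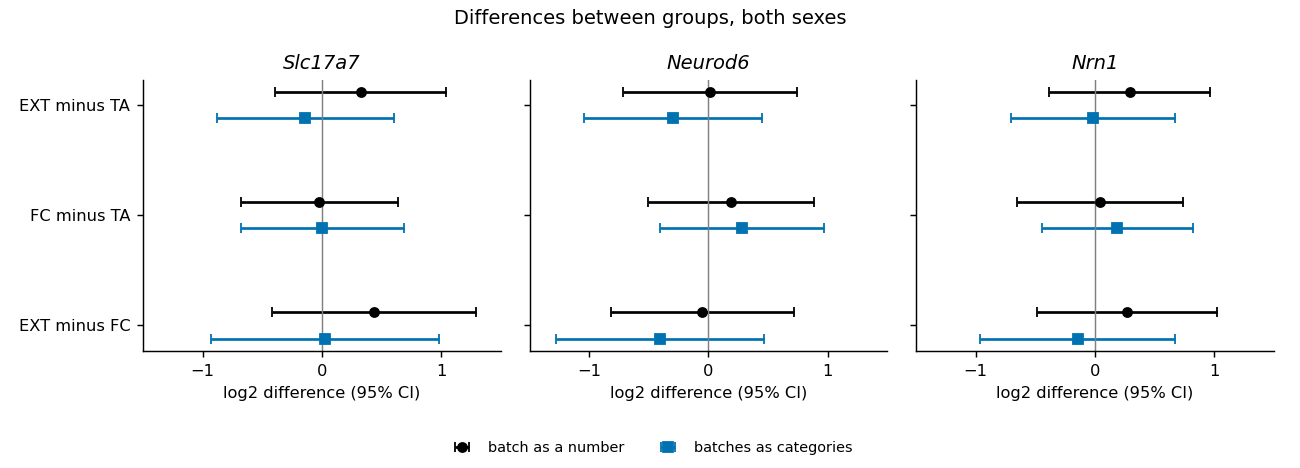
Log2 difference between groups (horizontal axis, with 95% confidence intervals) for Slc17a7, Neurod6 and Nrn1, with batch as a number (black circles) or as categories (blue squares). Every interval includes 0, and the EXT minus TA values move to the left when batches are categories.

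Comparisons inside batches 1, 2 and 5 were made without a model. The weighted within-batch difference for EXT vs. TA (26 mice) was -0.13 for Slc17a7, -0.26 for Neurod6 and -0.004 for Nrn1, with p = 0.731, 0.529 and 0.991 in a two-sided exact permutation test over 665280 arrangements. For FC vs. TA (28 mice) it was -0.009, 0.28 and 0.19 (exact permutation p = 0.981, 0.438 and 0.576). For EXT vs. FC (22 mice) it was 0.01, -0.40 and -0.16 (exact permutation p = 0.984, 0.398 and 0.725). The batches did not point one way. For Slc17a7 the FC minus TA difference was 1.16 in batch 1 (5 and 4 mice), -0.22 in batch 2 (2 and 5 mice) and -0.80 in batch 5 (5 and 7 mice), and for Neurod6 it was 1.21, 0.02 and -0.31. The EXT minus TA difference was 0.54, 0.02 and -0.54 for Slc17a7 and 0.66, -0.29 and -0.65 for Neurod6. In batch 1, looked at after this difference was seen, the 5 FC mice had Slc17a7 at 5.96, 5.97, 6.20, 6.64 and 7.72. The 4 TA mice there were at 4.97, 5.24, 5.31 and 5.82. For Neurod6 the FC and TA ranges overlapped in batch 1, at 3.14 to 4.97 and 2.30 to 3.19. Those of Nrn1 overlapped as well, at 3.58 to 5.67 and 2.95 to 4.91. How many of all genes separate FC from TA mice in batch 1 was not counted.

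The sexes were fitted apart as well. In males the EXT vs. TA difference, with batch as a number, was 0.20 ± 0.38 for Slc17a7, -0.36 ± 0.42 for Neurod6 and 0.40 ± 0.42 for Nrn1. With batches as categories, the male differences of Slc17a7 and Nrn1 changed sign, as given below. In females, with batch as a number, the difference was 0.57 ± 0.60, 0.67 ± 0.54 and 0.12 ± 0.48. None of these 6 passed FDR in limma, beside 0.0853% of all genes (7) in males and 0% in females, where 1221 had an unadjusted p under 0.05. Of the 9 tests of a difference between the sexes (3 genes in 3 comparisons), 0 passed FDR in limma, and the lowest unadjusted p was for Neurod6 in EXT vs. FC, where females exceeded males in their difference by 1.29 ± 0.73 (p = 0.0874, adjusted p = 1.00). In that test 0% of all genes were called and 238 genes had an unadjusted p under 0.05.

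Levels of Nrn1 and Neurod6 differed between batches. Nrn1 (lowest, median, highest) was at 2.95, 4.35 and 5.71 in batch 1, at 4.28, 6.17 and 6.51 in batch 2 and at 3.76, 5.90 and 6.76 in batch 5. With group and sex in the fit, Nrn1 was higher in batch 2 than in batch 1 by 1.59 ± 0.44 (adjusted p = 0.00285) and higher in batch 5 than in batch 1 by 1.36 ± 0.38 (adjusted p = 0.00287). Neurod6 was higher in batch 2 than in batch 1 by 1.18 ± 0.47 (adjusted p = 0.0351), and its difference between batches 5 and 1 was 0.90 ± 0.41 (adjusted p = 0.0597). Slc17a7 differed by 0.43 ± 0.49 and -0.01 ± 0.43 (adjusted p = 0.494 and 0.983). These batch differences called 48% and 55% of all genes, so a call here was common among all genes. Between batches 5 and 2, 0.536% of genes were called and none of these 3. Batch 1 held 9 females among its 11 mice and batch 5 held 5 among 17.

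The EXT mice of batches 3 and 4 differed in Slc17a7 from the other EXT mice by a margin that did not pass FDR. Their 6 levels were 5.40, 6.77, 7.45, 7.62, 7.85 and 8.17, against 3.97 to 7.78 with a median of 6.19 in the 10 EXT mice of the other batches. The highest and the next highest of all 44 mice were among the 6, and so was mouse 53, which ranked 9 from the lowest. Of the 6, mice 22, 25, 44 and 53 carry sex or group labels that break the order of the animal numbers, so the labels of these 4 may be wrong, which was not tested. The other 2, mice 23 and 55, had 7.85 and 7.45. The difference was 1.17 ± 0.54 (unadjusted p = 0.0433, adjusted p = 0.0970, limma with sex), beside 35.8% of all genes called in this comparison. It was 0.72 ± 0.49 for Neurod6 and 0.66 ± 0.48 for Nrn1 (adjusted p = 0.255 and 0.290). In these 6 mice the summed level of the 27 GABAergic and CeA genes was 3382 to 5766 cpm (median 4471), that of the 16 astrocyte genes 3024 to 4848 (median 3579) and that of the 16 pan-neuronal genes 8639 to 12915 (median 9279). In the 10 other EXT mice these medians were 8214, 2279 and 12572. The medians of the oligodendrocyte lineage genes were 7372 and 3167, those of the choroid plexus and ependyma genes 1054 and 3560, and those of the glutamatergic identity genes 4029 and 4053. The last sum adds cpm over genes, so abundant genes weigh most in it. In EXT mice the median log2 cpm was 10.84 for Arpp21, 9.23 for Nrgn and 6.70 for Slc17a7. The part of these differences in the levels of Slc17a7 was not tested. All mice compared here were labeled EXT, so this is a comparison between batches. Batches 3 and 4 hold no TA or FC mice to compare with.

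The 3 genes varied together from mouse to mouse. Each value was taken as a deviation from the mean of its batch and group, in 39 mice, and 3 pairs were tested by permuting one gene within batch and group (100000 permutations, two-sided). Slc17a7 and Neurod6 had a Pearson r of 0.75 (permutation p = 2e-05, adjusted p = 3e-05) and a Spearman rho of 0.72 (permutation p = 4e-05, adjusted p = 0.00012). Slc17a7 and Nrn1 had r = 0.77 (permutation p = 1e-05, the smallest these permutations can give, adjusted p = 3e-05) and rho = 0.68 (permutation p = 0.00011, adjusted p = 0.000165). Neurod6 and Nrn1 had r = 0.64 (permutation p = 0.00018, adjusted p = 0.00018) and rho = 0.59 (permutation p = 0.00107, adjusted p = 0.00107). Without the 2 mice farthest from the median of the first gene, r was 0.73, 0.72 and 0.64. With library size removed it was 0.75, 0.77 and 0.65.

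Within single batches r varied. For Slc17a7 and Neurod6 it was 0.41 in batch 1 (9 mice), 0.96 in batch 2 (8 mice) and 0.76 in batch 5 (17 mice). For Slc17a7 and Nrn1 it was 0.09, 0.91 and 0.88, so in batch 1 this pair lay near 0. For Neurod6 and Nrn1 it was 0.72, 0.81 and 0.70. By group, r for Slc17a7 and Neurod6 was 0.66 in TA (16 mice), 0.86 in FC (10 mice) and 0.76 in EXT (13 mice). The lowest value of any pair in any group was 0.52, for Neurod6 and Nrn1 in TA. Males (23 mice) and females (16 mice) gave 0.77 and 0.80 for Slc17a7 and Neurod6.

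**Figure D4:**
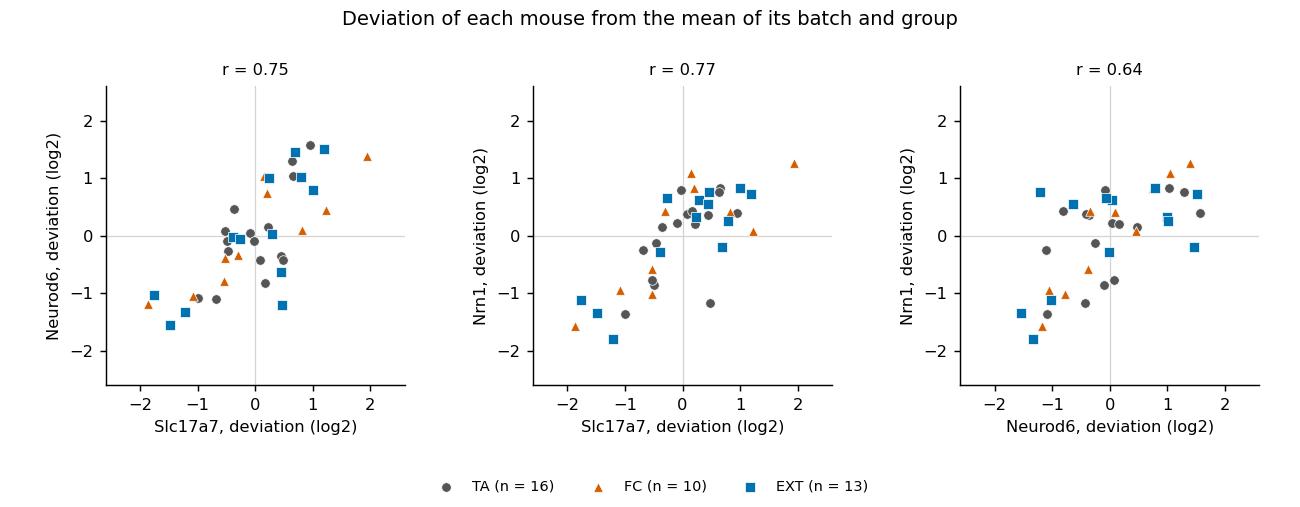
Deviation of each mouse from the mean of its batch and group for each pair of the 3 genes (both axes in log2 units, 39 mice, TA gray circles, FC orange triangles, EXT blue squares). Mice of every group lie along the diagonal, with Pearson r of 0.75, 0.77 and 0.64.

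Correlations with all other genes are given as descriptions over the same 39 mice, whose values share library, depth and scaling. The genes most like Slc17a7 were 3110035E14Rik (r = 0.87), Nptxr, the neuronal pentraxin receptor (0.86), Zbtb18, a zinc finger repressor of cortical neuron development (0.82), Pter (0.80) and Cck, the neuropeptide cholecystokinin (0.79). Those most like Neurod6 were 3110035E14Rik (0.84), Schip1 (0.78), St6galnac5, a sialyltransferase (0.78), Zbtb18 (0.76) and Slc17a7 itself (0.75). Those most like Nrn1 were Cck (0.84), the nuclear receptor Nr2f2 (0.80), the zinc finger factor Klf6 (0.80), Cmbl (0.79) and the nuclear receptor Nr2f1 (0.77). Over all other genes the median r was between -0.012 and -0.005 for the 3 genes, and 108, 207 and 165 of 8200 genes had r above 0.5 with Slc17a7, Neurod6 and Nrn1.

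The other 12 measured genes of the glutamatergic identity list did not move as 1 block. Their median r was 0.39 with Slc17a7, 0.38 with Neurod6 and 0.31 with Nrn1, and 9 of 12 were positive with each. Cck had 0.79 with Slc17a7, and Nptx1, a secreted pentraxin of excitatory synapses, had 0.76. The secreted Wnt-pathway protein Dkk3 had 0.74 with Neurod6 and 0.66 with Slc17a7, and the synaptic vesicle protein Sv2b had 0.59 and 0.62. Mef2c, a transcription factor regulated by activity, had 0.42 to 0.50 with the 3 genes. Rorb had 0.41 to 0.48, and Camk2a, the alpha subunit of the CaM kinase of excitatory synapses, had 0.28 to 0.36. Etv1 had 0.08 to 0.32, and Itpka had 0.04 to 0.12. Nrgn (neurogranin) and Lmo3 lay near 0 or below, at -0.08 to -0.06 and -0.20 to -0.11. Arpp21, a phosphoprotein abundant in striatal as well as cortical neurons, ran the other way, at -0.55, -0.57 and -0.60.

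GABAergic and CeA genes tended to run opposite to the 3 genes. Of 27, 19 were negative with Slc17a7 (median r -0.33), 19 with Neurod6 (-0.30) and 20 with Nrn1 (-0.33). Crh had -0.33, -0.31 and -0.38, Gad1 had -0.33, -0.11 and -0.39, and Gad2 had -0.45, -0.30 and -0.24. The lowest values, picked after they were seen, were those of Ppp1r1b, which encodes DARPP-32 (-0.78 with Nrn1), Penk, the enkephalin precursor (-0.76 with Nrn1), Drd1, a dopamine receptor (-0.73 with Nrn1), and Tac1, the substance P precursor (-0.73 with Neurod6). Calb2, the calretinin gene, was an exception at 0.73 with Nrn1. Astrocyte genes were mostly positive (16 of 16 with Slc17a7 and Neurod6, 14 of 16 with Nrn1), with a median r of 0.40, 0.40 and 0.24. Pan-neuronal genes had a median r of -0.05, -0.02 and -0.14, and oligodendrocyte lineage genes of -0.18, -0.15 and -0.24. Of the endothelium and pericyte list, Rgs5, a pericyte gene, had 0.69, 0.69 and 0.62, higher than any astrocyte gene, and Itm2a had 0.01, 0.19 and -0.29. The 4 measured choroid plexus and ependyma genes were negative with all 3 genes. The part of these cell type markers in the levels of the 3 genes was not tested.

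**Figure D5:**
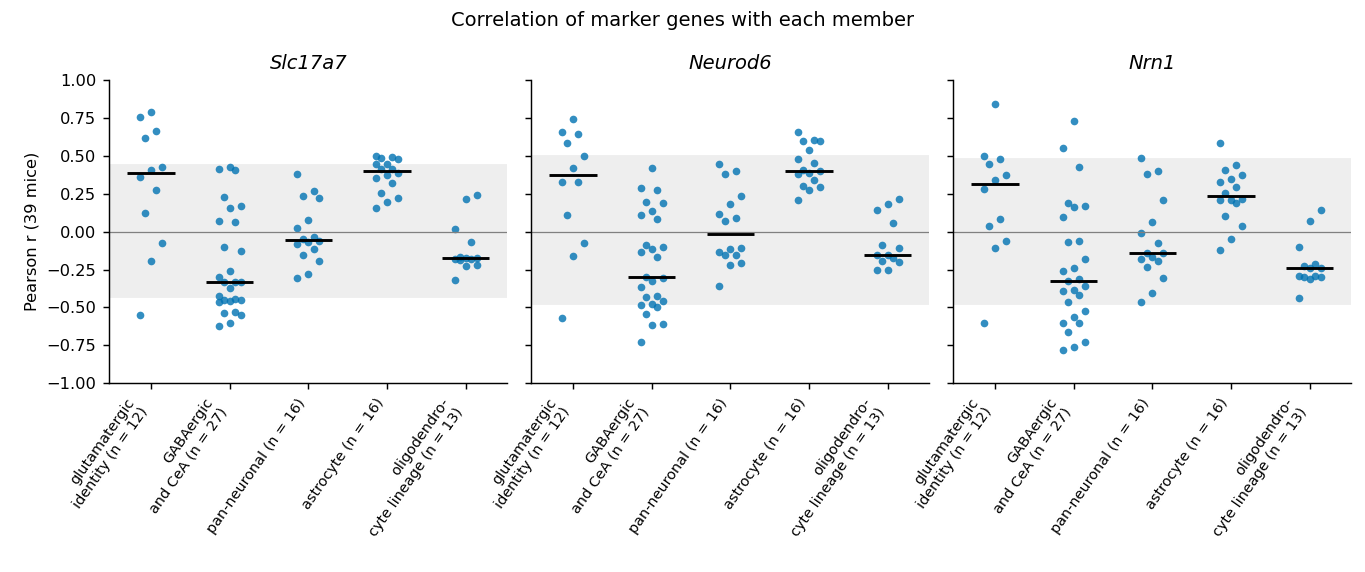
Pearson r over 39 mice (vertical axis) between each of the 3 genes (panels) and the measured genes of 5 marker lists (points, with a line at the median); the gray band holds the central 95% of all other genes. Glutamatergic and astrocyte genes lie mostly above 0 and GABAergic and CeA genes mostly below.

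Among the glutamatergic identity genes, 1 of 15 passed FDR in EXT vs. TA, beside the 21.4% of all genes. This was Nptx1, lower by a log2 difference of -0.38 ± 0.14 (adjusted p = 0.0422). The differences of the others that lay below 0 were -0.37 ± 0.18 for Sv2b, -0.12 ± 0.13 for Mef2c, -0.05 ± 0.13 for Camk2a, -0.02 ± 0.24 for Cck and -0.004 ± 0.14 for Nrgn. Those above 0 were 0.76 ± 0.31 for Rorb, 0.52 ± 0.21 for Arpp21, 0.38 ± 0.15 for Etv1, 0.16 ± 0.25 for Dkk3, 0.11 ± 0.08 for Lmo3 and 0.09 ± 0.10 for Itpka, with adjusted p from 0.0662 to 0.661. The median of the 15 was 0.09, against 0.01 over all genes, and with batches as categories it was -0.02 and 0 of 15 passed in limma, with 1 at an unadjusted p under 0.05 (21.1% of all genes). In FC vs. TA and in EXT vs. FC 0 of 15 passed in limma, with 2 and 3 at an unadjusted p under 0.05, beside 10.4% and 19.3% of all genes.

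Other genes of glutamate handling and of the families of the 3 genes were measured in the same comparison, in which 21.4% of all genes were called (10.4% higher and 11% lower). The counts of the lists that follow are descriptions beside those shares. With library size as a covariate, 0 genes were called in this comparison. Of 12 genes of glutamate synthesis, uptake and vesicle loading, 1 was higher and 4 were lower in EXT than in TA. The glial glutamate transporter Slc1a2 was higher by 0.96 ± 0.29 (adjusted p = 0.0234), and the mitochondrial aspartate aminotransferase Got2 was lower, at -0.57 ± 0.13 (adjusted p = 0.0130). Of 15 bHLH factors and Id proteins, Mxi1 was higher by 0.70 ± 0.17 (adjusted p = 0.0130) and Bhlhe40 lower, at -0.45 ± 0.15 (adjusted p = 0.0327). Of 21 activity-regulated plasticity genes, to which Nrn1 also belongs, 0 were higher and 9 lower. Nptx1, the called gene of the glutamatergic identity list, is on this list too and is 1 of the 9. The immediate early gene Junb had the lowest p, at -0.71 ± 0.13 (adjusted p = 0.0130), and Btg2 had the lowest p of those above 0, at 0.28 ± 0.22 (adjusted p = 0.354).

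The counts of cell type markers stand beside the same 10.4% higher and 11% lower. Of 27 GABAergic and CeA genes, 1 was higher (the transcription factor Meis2, by 0.41 ± 0.14, adjusted p = 0.0348) and 5 were lower, with Gad1 at -0.61 ± 0.14 (adjusted p = 0.0130). Of 16 pan-neuronal genes, 4 were lower. The neuronal tubulin Tubb3 was at -0.77 ± 0.17 (adjusted p = 0.0130), and Map2 had the lowest p of those above 0 (0.67 ± 0.29, adjusted p = 0.0883). Of 16 astrocyte genes 2 were higher, Slc1a2 among them, and Gfap was at -0.42 ± 0.32 (adjusted p = 0.333). No gene passed among 13 of the oligodendrocyte lineage (Mobp 0.76 ± 0.33, Cnp -0.40 ± 0.17), 2 of endothelium and pericytes (Rgs5 -0.27 ± 0.28) and 4 of choroid plexus and ependyma (Enpp2 -1.39 ± 0.66), with adjusted p from 0.0790 to 0.494. With batches as categories, of all these lists only the activity-regulated genes kept a call, 1 gene that was lower.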

How the data were processed

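RNA bound to eGFP-tagged ribosomes was sequenced as 50-base paired reads. Per the labels and methods, the authors trimmed reads with Trimmomatic 0.36, aligned them with STAR to GRCm38, removed outlier samples and low genes, and deposited log2 cpm values (counts per 1e6 reads, from voom) for 44 mice; the counting tool is not given in the sources used here. The stated filter is over 4 cpm in all samples, and 57 of the 8203 rows held a value at or under it. Solving the deposited log2 values for the library size gave whole reads within 0.1 for all 360932 values, and these reads were used only for depth, voom weights and another offset.

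Groups, batches and sexes came from the labels. Differences were fitted with limma 3.58.1 (R 4.3.3) on the log2 values across all genes, for 2 groups at a time, with batch number and sex as covariates, and adjusted by Benjamini-Hochberg; the coding of batch in the study is not given. Values with batches as categories are printed for both sexes in EXT vs. TA and EXT vs. FC, and for some genes in the other fits. Spread and correlations (Python 3.11.15, scipy 1.17.1) used deviations from the mean of each batch and group with at least 3 mice. Counts per kilobase used the union of exons of each gene. The pair-wise limma fit, the permutation tests and the correlation within batch and group were tested on simulated data. The other steps were not. The reads simulated for limma held no batch effects and had the same dispersion in every gene. They thus cannot show how the fit behaves under either coding of batch. Each mouse is 1 library, so p-values cover the spread between mice and counting error together.

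The 3 genes and the 11 marker lists were chosen with earlier results of these data known. Named were the 3 genes, every measured glutamatergic identity gene, from every other list the gene most significant in either direction for EXT vs. TA, Gad1, Gad2, Slc32a1 (not analysed here) and Crh, and the 5 genes most correlated with each of the 3. Some genes that these rules name, and 1 marker list, are not reported here. The alternatives were 16 planned and 1 added after seeing the data, leaving out mice 22, 25, 44 and 53 of batch 3, whose sex or group labels break the order of the animal numbers.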

Additional observations from a re-analysis of the deposited data

Results flagged for a closer look

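Slc17a7 in FC mouse 12 lay apart from the other FC females. Its level was 3.72 (log2 cpm, 217 reads), the lowest of the 6 FC females and of all 44 mice, and its gap to the next mouse was 0.77 of the range of the group, above Dixon's 95% critical value of 0.625. The tests covered 18 groups (3 genes, 3 groups, 2 sexes) and this was the 1 value past the limit; chance alone passes about 1 group in 20. Neurod6 was also lowest in this mouse among the FC females, at 2.84, but Nrn1 (3.92) was not, since FC mouse 16 had 3.58. The comparison did not take batch into account. Mouse 12 is in batch 5 and 4 of the other 5 FC females are in batch 1, and the other FC mice of batch 5 had Slc17a7 from 4.49 to 7.52. Without this mouse the FC vs. TA difference of Slc17a7 was 0.17 in place of -0.02, with no call either way.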

How the results depend on the processing

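No alternative brought Slc17a7, Neurod6 or Nrn1 past FDR between groups of both sexes, and the signs of these small differences depended on the setting. Leaving out single mice gave 264 values, of which 43 changed sign, and the other alternatives gave 192, of which 32 changed sign. For EXT vs. TA with batches as categories, Slc17a7, Neurod6 and Nrn1 were at -0.14, -0.30 and -0.018 in both sexes, and Slc17a7 and Nrn1 at -0.53 and -0.25 in males. Without batches 3 and 4, Slc17a7 and Neurod6 were at -0.12 and -0.26, with array weights at -0.038 and -0.29, and with a pan-neuronal score as covariate the 3 genes were at -0.13, -0.27 and -0.092. Neurod6 was at -0.033 after quantile normalization, -0.010 with a choroid plexus score, and -0.032 without mice 22, 25, 44 and 53. For FC vs. TA, Slc17a7 was at 0.0019 with batches as categories (0.16 in females), 0.0018 after quantile normalization, 0.0055 with voom weights, 0.0033 with the pan-neuronal score and 0.021 with categories and library size. Nrn1 was at -0.10 with array weights, -0.055 with library size and -0.34 with the choroid plexus score, and Neurod6 was at -0.12 with array weights. For EXT vs. FC, Neurod6 was at 0.070 with array weights and 0.068 with library size, and Nrn1 was at -0.15 with categories and -0.039 with categories and library size. In males with categories, Slc17a7 was at -0.23 and Nrn1 at -0.59. With library size, the batch 5 minus batch 1 difference of Slc17a7 was 0.12.

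Leaving out 1 mouse moved Neurod6 between -0.10 and 0.17 in EXT vs. TA and between -0.20 and 0.11 in EXT vs. FC. In FC vs. TA it moved Slc17a7 between -0.17 and 0.17 and Nrn1 between -0.11 and 0.19. The number of all genes called in EXT vs. TA (1755) ran from 1079 to 2209, and it was 1103, 1144, 1105 and 1079 without EXT mice 21, 22, 25 and 53. In FC vs. TA it ran from 0 to 2 and in EXT vs. FC from 0 to 1. That EXT vs. TA number was 2 with batches as categories, 3 without batches 3 and 4, 5 with array weights and 0 with library size, with the pan-neuronal score, with categories and library size, or without mice 22, 25, 44 and 53. In males with categories 1 gene was called in EXT vs. TA (7 with batch as a number) and 2 in EXT vs. FC (0). In EXT vs. FC of both sexes 17 were called with the 3 groups fitted together and 12 with array weights (0 otherwise). With library size, 4 genes differed between batches 5 and 2 (44 without it). With categories or without batches 3 and 4, the lists of glutamatergic identity, glutamate handling and bHLH genes each had 0 calls in EXT vs. TA. The causes of these changes were not tested. Neurod6 has no value where a mean log2 level of at least 5 was required. No paired analysis was possible because each mouse belongs to 1 group and no animal number is shared across groups; the batches that groups share enter the fits with batches as categories. Counting error was below the spread between mice for all 3 genes.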
